A study of Homo sapiens with 80 samples.

Results

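SU-DHL-1 cells that had regrown after lenalidomide were compared with parental SU-DHL-1 cells after the guide RNA against ZFP91 had been switched on in both. The comparison used 6 RNA-seq libraries of the 80 samples in the series, chosen by their labels: 3 regrown and 3 parental. SU-DHL-1 is an established cell line from a T-lineage tumour, ALK-positive anaplastic large cell lymphoma. All 12 libraries of the experiment came from Cas9-expressing SU-DHL-1 cells that carried an inducible vector for a single guide RNA against ZFP91, grown in RPMI1640 with fetal bovine serum. The regrown KO group (RG_KO) was 3 independent pools that had become resistant under rising lenalidomide, had been off the drug for at least 2 months, and received 1 ug/ml doxycycline for 96 hours to induce the guide. The parental KO group (P_KO) was the drug-naive line with the same vector, doxycycline dose and time, also 3 libraries. The regrown WT (RG_WT) and parental WT (P_WT) groups, 3 libraries each, carried the same Cas9 and vector but received no doxycycline, so the action of the ZFP91 guide and the presence of doxycycline cannot be told apart between the KO and WT groups. Another 6 libraries, 3 of regrown and 3 of parental cells, were PRO-seq, a run-on method that maps nascent RNA on transcribing polymerase. Nothing in the labels says that the parental replicates were separate cultures, so p-values measure the spread between these libraries.

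Lenalidomide binds cereblon (CRBN), the substrate receptor of a CRL4 ubiquitin ligase, and so leads the ligase to zinc-finger proteins that it would otherwise spare, among them IKZF1 and IKZF3 in lymphoid cells and ZFP91. These proteins are called neosubstrates. ZFP91 is a zinc-finger protein with roles in ubiquitination and NF-kB signalling, and IRF4 and MYC are transcription factors on which several lymphomas depend. Casein kinase 2 is a constitutively active kinase built from catalytic subunits (CSNK2A1, CSNK2A2) and a regulatory subunit (CSNK2B).

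The guide's target was examined first. ZFP91 mRNA stood at 101, 83.6 and 75.9 CPM (counts scaled to a fixed library total) in the regrown KO libraries, against 91.7, 85.8 and 86.6 CPM in the parental KO libraries. It stood at 94.3, 93.4 and 86.5 CPM in the regrown WT libraries, against 112, 119 and 111 CPM in the parental WT libraries. The parental KO values lay below the parental WT values, and the regrown KO and regrown WT values overlapped. Between regrown KO and parental KO the ZFP91 level overlapped (log2 change -0.03 ± 0.10 SE, adjusted p = 0.859 by edgeR's quasi-likelihood test, the test behind every adjusted p given here). Small insertions and deletions made by Cas9 need not lower an mRNA, and no protein was measured, so these counts do not show how much ZFP91 was lost.

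The 6 libraries held 15387114 to 23052717 counts, and the 6 WT libraries 17008139 to 20408212. All 10 fixed markers of ALK-positive anaplastic large cell lymphoma were above 1 CPM in both KO groups. Their summed level was 4870 to 4970 CPM in regrown KO and 5690 to 5890 CPM in parental KO. B-cell markers summed to under 1 CPM in every library, with MS4A1, CD79B and CR2 at 0. Epithelial and stromal markers summed to 3.79 to 5.94 CPM in regrown KO and 6.54 to 7.99 CPM in parental KO, with PECAM1 at 0. Myeloid markers summed to 34.5 to 35.3 CPM in regrown KO and 396 to 409 CPM in parental KO, with LYZ and MPO at 0 in both. CD163, a scavenger receptor of macrophages, carried that difference at 5.81, 7.89 and 7.68 CPM in regrown KO, against 386, 381 and 394 CPM in parental KO. In bulk RNA, fewer cells of a kind and less RNA per cell cannot be told apart. Mitochondrially encoded genes took 2.79 to 3.88% of counts in regrown KO and 3.6 to 4.71% in parental KO, ranges that overlapped.

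Resistance differences were broad with the guide induced. Of 13444 genes tested, 5165 (38.4%) were called at an adjusted p under 0.05, with 2500 rises (18.6%) and 2665 falls (19.8%) in regrown KO against parental KO. The median absolute log2 change of the called genes was 0.642, and the median over all genes was 2.28e-05. Rises of at least 1 on the log2 scale numbered 592 (4.4%) and falls of that size 904 (6.72%), together 1496 (11.1%). The 2 groups did not overlap at 6845 of the 13444 genes (50.9%).

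Most of these differences were also present without doxycycline. Regrown WT against parental WT gave 3023 rises (22.6%) and 2827 falls (21.1%) of 13379 genes tested, 5850 in all (43.7%), from other libraries of the same pools. Scaling by library size alone turned that split to 2415 rises and 3546 falls and moved the median of all genes to -0.10. Over the 13045 genes tested in both comparisons, 1507 rises were called in both, which is 60.9% of the KO rises and 50.2% of the WT rises. Likewise 1599 falls were called in both, 61% of the KO falls and 57.6% of the WT falls. A log2 change of at least 1 was reached without doxycycline by 717 rises (5.36%) and 966 falls (7.22%), 1683 genes in all (12.6%). When both comparisons had to reach it, 383 rises were shared (67.7% of the KO rises and 55.0% of the WT rises) and 564 falls (65.4% of the KO falls and 61.6% of the WT falls). Of the 5778 genes called without doxycycline, 4730 (81.9%) had the same sign with the guide induced. The log2 changes of the 2 comparisons had Pearson's r = 0.842 across 13045 genes. The genes are not independent replicates, and the regrown libraries came from the same 3 pools.

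**Figure D1:**
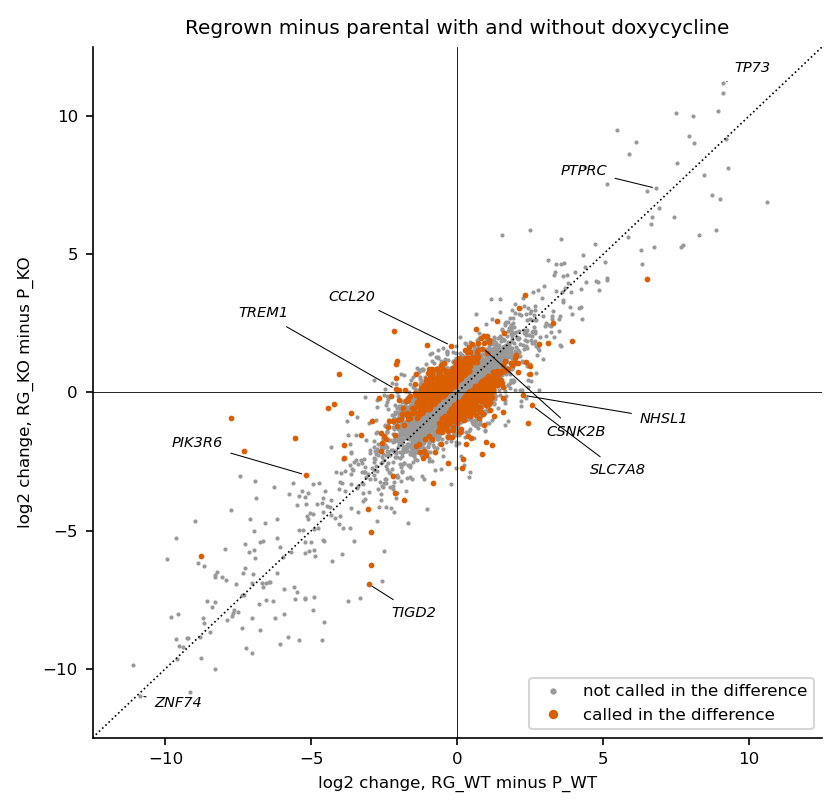
Log2 change of each of the 13045 genes tested in both comparisons, RG_KO minus P_KO on the vertical axis and RG_WT minus P_WT on the horizontal axis. Points lie along the dotted line of equal change (r = 0.842), with genes called in the test of the difference (adjusted p under 0.05) in orange.

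The casein kinase 2 subunits changed in opposite directions, and each kept its direction between the comparisons with and without doxycycline. CSNK2B, the regulatory subunit, stood at 72.0, 49.1 and 57.4 CPM in regrown KO, against 13.2, 27.5 and 16.8 CPM in parental KO. All 3 regrown values were above all 3 parental values (log2 change 1.62 ± 0.24 SE, adjusted p = 0.000794). Without doxycycline CSNK2B stood at 34.6, 29.6 and 25.8 CPM in regrown WT, against 14.6, 16.9 and 21.6 CPM in parental WT (0.86, adjusted p = 0.000542). The larger value with the guide was not called in the test of the difference (0.79 ± 0.31 SE, adjusted p = 0.105). That p ranged from 0.000285 to 0.831 over the alternatives, and was under 0.05 with no filter on low counts (0.000285), with the replicate numbers as a block (0.0287) and without parental KO replicate 2 (0.00436).

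CSNK2A1, the alpha catalytic subunit, fell to 158, 154 and 152 CPM in regrown KO, against 296, 284 and 301 CPM in parental KO (log2 change -0.93 ± 0.07 SE, adjusted p = 1.72e-05). Its change without doxycycline was -0.99, and the difference between the 2 was 0.08 (adjusted p = 0.628). CSNK2A2, the alpha-prime catalytic subunit, stood at 259, 254 and 290 CPM in regrown KO, against 214, 128 and 166 CPM in parental KO. The groups did not overlap (0.66 ± 0.16 SE, adjusted p = 0.0115), but the call was lost without parental KO replicate 3 (adjusted p = 0.0535) and without regrown KO replicate 3 (adjusted p = 0.0507). The rise without doxycycline was larger, with 395, 345 and 469 CPM in regrown WT, against 173, 166 and 140 CPM in parental WT (1.43), and the difference was called (-0.76 ± 0.22 SE, adjusted p = 0.0456). That call held in 3 of the 12 fits that left out 1 library, and its adjusted p ranged from 4.62e-05 to 0.518 over the alternatives.

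Each casein kinase 2 gene lay among neighbours that had moved the same way. The 24 tested genes nearest to CSNK2B on chromosome 6 had a median log2 change of 1.48, and 21 of them rose. Around CSNK2A2 on chromosome 16 the median was 1.02, with 21 rises and 2 falls. Around CSNK2A1 on chromosome 20 it was -1.23, with 21 falls and 2 rises. In PRO-seq, CSNK2B (2.05), CSNK2A2 (0.61) and CSNK2A1 (-0.98) changed in those same directions in regrown cells against parental cells.

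CRBN, the drug's receptor, rose. It stood at 55.5, 51.0 and 45.7 CPM in regrown KO, against 31.2, 33.5 and 35.0 CPM in parental KO, so it was higher in every regrown library (log2 change 0.60 ± 0.09 SE, adjusted p = 0.000962). Without doxycycline its change was 0.25 (adjusted p = 0.0809), and the difference between the 2 was not called (0.38, adjusted p = 0.0871). The 24 nearest genes to CRBN on chromosome 3 had a median of 0.45, and 18 of them rose. IKZF1, the Ikaros neosubstrate, stood at 688, 692 and 713 CPM in regrown KO, against 687, 505 and 596 CPM in parental KO and was not called (0.22 ± 0.12 SE, adjusted p = 0.166), though it was without parental KO replicate 1 (0.34, adjusted p = 0.00715) and with a covariate for gene span (0.28, adjusted p = 6.61e-05). It did rise without doxycycline (0.80, adjusted p = 1.53e-05), and the difference was called (-0.55, adjusted p = 0.0405), in 3 of the 12 fits that left out 1 library as well. IKZF3, the Aiolos neosubstrate, was at 0 in all 3 regrown KO libraries and held 4 counts in all in parental KO, too few to test.

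Among the transcription factors of the design, IRF4 fell to 289, 204 and 216 CPM in regrown KO, against 552, 405 and 522 CPM in parental KO. The groups did not overlap (-1.07 ± 0.15 SE, adjusted p = 0.000603), and IRF4 also fell without doxycycline (-1.31). The 24 nearest genes to IRF4 on chromosome 6 had a median of -0.32, with 10 falls and 1 rise, and a median of -0.55 without doxycycline. JUN, an AP-1 subunit, stood at 17.4, 23.4 and 23 CPM in regrown KO, against 27.9, 38.0 and 38.0 CPM in parental KO (-0.71 ± 0.16 SE, adjusted p = 0.00708), and fell by 1.2 on the log2 scale without doxycycline. BATF3, its partner in this lymphoma, had values of 399, 391 and 369 CPM in regrown KO, against 239, 364 and 314 CPM in parental KO and was not called (0.33 ± 0.14 SE, adjusted p = 0.088). It was called without parental KO replicate 2 (0.48, adjusted p = 0.00408), when all 12 libraries shared a fit (adjusted p = 0.0271) with no filter on low counts (adjusted p = 0.00425) and with the gene-span covariate (0.29, adjusted p = 2.88e-05). MYC overlapped between the groups, at 430, 469 and 431 CPM in regrown KO and 297, 474 and 440 CPM in parental KO (0.13 ± 0.16 SE, adjusted p = 0.552). So 6 of the 10 design genes tested were called, where 38.4% of all genes were.

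**Figure D2:**
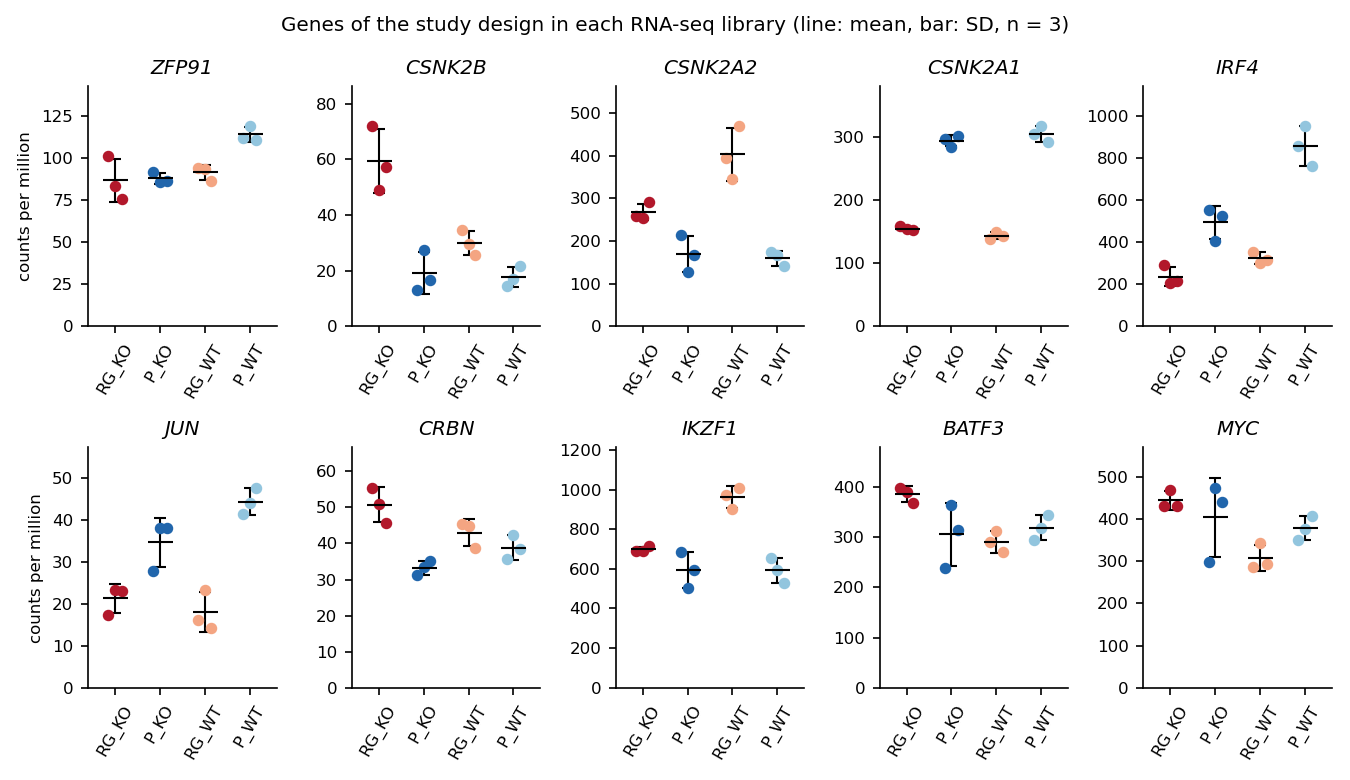
CPM of 10 genes of the study design in each library, with the mean (line) and SD (bar) of the 3 libraries of RG_KO, P_KO, RG_WT and P_WT. In both regrown groups CSNK2B is above, and CSNK2A1 and IRF4 are below, the parental libraries of the same doxycycline treatment. ZFP91 overlaps between RG_KO and P_KO.

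The largest changes were taken among called genes whose values did not overlap between the 2 groups. The largest rises were genes near or at 0 in parental KO. TP73, which encodes the p53-family transcription factor p73, had 13.7, 16.7 and 13.1 CPM in regrown KO, against 0 counts in all 3 parental KO libraries. Set against 3 counts over the group, its level was at least 272-fold higher. KLHL4, a kelch-like protein, had 12.3, 10.9 and 11.1 CPM in regrown KO, against 0 in parental KO (at least 217-fold higher). ITPKB, a kinase of soluble inositol phosphates, was at least 138-fold higher, GPRIN3 at least 130-fold, CCDC149 at least 120-fold and the homeobox gene HOXC8 at least 84.9-fold, all against 0 counts. These 6 genes were on in all 3 independent pools, as that rule required.

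The other large rises had traces of RNA in parental KO. PTPRC, which encodes the CD45 phosphatase of leukocytes, stood at 505, 439 and 456 CPM in regrown KO, against 2.53, 2.10 and 3.62 CPM in parental KO (log2 change 7.38 ± 0.18 SE, adjusted p = 5.88e-08). NETO2, an auxiliary subunit of kainate receptors, stood at 44.0, 45.6 and 43.6 CPM in regrown KO, against 0.130, 0.102 and 0 CPM in parental KO (9.17 ± 0.27 SE). PIK3CG, the catalytic p110 gamma subunit of PI3-kinase, stood at 21.1, 22.4 and 20.5 CPM in regrown KO, against 0.0650, 0.153 and 0 CPM in parental KO (8.11 ± 0.33 SE). The choice of genes required that these values not overlap between the groups. ITGA1, the alpha-1 integrin that binds collagen, had 448 counts in regrown KO and 3 in parental KO, a ratio of 133 with a 95% counting interval of 45.1 to 645. For the zinc-finger genes ZNF518B and ZNF605, with 1 count each in parental KO, the ratios were 845 (151 to 33400) and 211 (37.6 to 8380).

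The largest falls were genes silent or nearly silent in regrown KO. ZNF74, a zinc-finger gene on chromosome 22, was at 0 counts in all 3 regrown KO libraries, against 11, 13 and 13.5 CPM in parental KO, at least 270-fold lower. RRAGD, a Rag GTPase that signals amino acids to mTORC1, was at 0 in regrown KO, against 11.7, 10.0 and 12 CPM in parental KO (at least 240-fold lower). DNAJC15, a co-chaperone of mitochondrial import, was at 0 in regrown KO, against 4.87, 8.43 and 5.59 CPM in parental KO (at least 136-fold lower). SULF1, an enzyme that trims sulfates from heparan sulfate, was at least 125-fold lower, A4GALT, the synthase of globotriaosylceramide, at least 107-fold lower and SPATA6 at least 90.9-fold lower, all with 0 counts in regrown KO. SLC17A9, a vesicular nucleotide transporter, had 3 counts in regrown KO and 1672 in parental KO, a ratio of 628 lower (214 to 3050). RTL8C, KREMEN1, USP40, ARHGAP9 and NMNAT3 had 1 or 2 counts in regrown KO, against 968, 738, 1232, 603 and 358 in parental KO. As genes without overlap were chosen, no regrown KO library could be an exception for any of these 12.

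**Figure D3:**
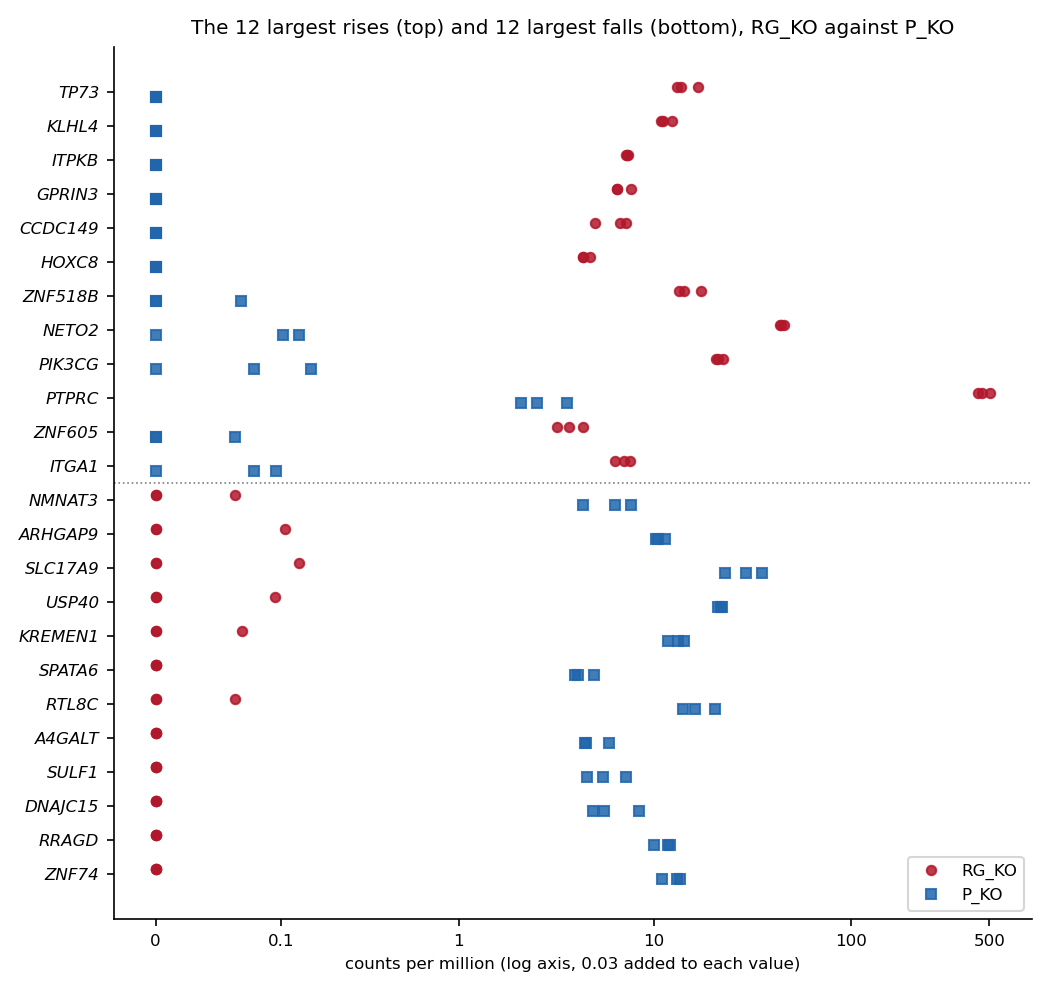
CPM in each RG_KO (red circles) and P_KO (blue squares) library of the 12 largest rises and 12 largest falls, on a log axis with 0.03 added to each value. The groups are apart at each gene by the rule that chose them. At 0 are 6 of the rises in every P_KO library and 6 of the falls in every RG_KO library.

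All 12 of these rises and all 12 falls were called in the same direction without doxycycline, and the smallest adjusted p of the difference among the 24 was 0.0869 (SLC17A9). In PRO-seq, where the background was 14% rises and 16.2% falls (30.2% of 16456 genes called in all), 10 of the 10 rises and 12 of the 12 falls that could be tested were called in the same direction. TP73 changed by 4.25 in that assay, PTPRC by 5.84, RRAGD by -3.26, SULF1 by -4.27 and ZNF74 by -0.78 on the log2 scale. Across 11973 genes tested in both assays the PRO-seq and RNA-seq log2 changes had r = 0.698. They came from regrown and parental cells of the same line, and the PRO-seq cells are not labelled as carrying the guide.

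The promoters of the first of these genes are printed because their transcripts stood at 0 counts in every library of a group and at 919 (TP73), 734 (KLHL4), 719 (ZNF74) and 362 (DNAJC15) counts over the other group. RRAGD, the second largest fall, has no entry in the promoter table, so DNAJC15, the third, is shown. Each runs from 250 bases before to 50 bases after the start site, 5′ to 3′ on the gene's strand, from RefSeq (GRCh38.p14), with CpG dinucleotides in capitals. TP73 lies at chr1:3652266-3652565 (plus strand), KLHL4 at chrX:87517552-87517851 (plus strand), ZNF74 at chr22:20393901-20394200 (plus strand) and DNAJC15 at chr13:43023336-43023635 (plus strand).
TP73: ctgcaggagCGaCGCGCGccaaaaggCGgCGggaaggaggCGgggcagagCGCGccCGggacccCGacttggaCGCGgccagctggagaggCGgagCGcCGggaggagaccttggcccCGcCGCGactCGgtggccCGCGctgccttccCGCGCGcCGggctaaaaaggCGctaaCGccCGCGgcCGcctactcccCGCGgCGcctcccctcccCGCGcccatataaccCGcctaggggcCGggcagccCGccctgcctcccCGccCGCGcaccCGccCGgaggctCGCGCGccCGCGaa
KLHL4: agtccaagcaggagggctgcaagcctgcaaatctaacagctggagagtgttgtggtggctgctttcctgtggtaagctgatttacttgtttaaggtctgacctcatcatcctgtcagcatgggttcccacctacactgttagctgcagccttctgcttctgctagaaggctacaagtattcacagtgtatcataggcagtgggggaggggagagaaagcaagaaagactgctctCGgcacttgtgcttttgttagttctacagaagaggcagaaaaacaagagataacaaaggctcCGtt
ZNF74: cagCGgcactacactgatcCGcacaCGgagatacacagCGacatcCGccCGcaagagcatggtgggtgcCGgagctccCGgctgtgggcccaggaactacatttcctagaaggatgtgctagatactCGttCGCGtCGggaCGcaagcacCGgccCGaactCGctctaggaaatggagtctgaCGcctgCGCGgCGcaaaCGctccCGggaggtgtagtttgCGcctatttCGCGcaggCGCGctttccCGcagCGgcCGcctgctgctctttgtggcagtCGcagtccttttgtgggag
DNAJC15: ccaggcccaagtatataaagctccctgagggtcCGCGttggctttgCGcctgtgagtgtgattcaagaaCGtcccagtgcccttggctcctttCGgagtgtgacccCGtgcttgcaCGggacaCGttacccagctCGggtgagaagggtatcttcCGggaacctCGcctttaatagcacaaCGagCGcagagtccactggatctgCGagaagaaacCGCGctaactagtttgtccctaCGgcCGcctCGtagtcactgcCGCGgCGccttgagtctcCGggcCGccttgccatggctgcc
They hold 49, 2, 31 and 24 CpG dinucleotides, against a median of 26 (quartiles 19 and 35) over the promoters of 9851 tested genes. So the rises include a CpG-dense and a CpG-poor promoter. The pattern TGANTCA, which covers AP-1 sites and other sequences and reads the same on both strands, occurs in 449 of the 9851 promoters (4.56%). It occurs once in the DNAJC15 window, as TGATTCA rather than the AP-1 consensus TGA(C/G)TCA, and not in the other printed windows.

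Switch-like genes were counted by a single rule: at least 1 CPM in each library of a group and at most 0.1 CPM in each library of the other. By it 19 genes were on in regrown KO and off in parental KO, and 48 were off in regrown KO and on in parental KO. Without doxycycline, 18 of the 19 and all 48 kept their order with no overlap between regrown WT and parental WT, while 8 of the 19 and 33 of the 48 met the thresholds themselves there. In PRO-seq 14 of the 16 tested genes of the first set rose (median log2 change 3.10), and 37 of the 44 tested genes of the second fell (median -2.57). The genes that were on included the zinc-finger genes ZNF26, ZNF331, ZNF518B, ZNF551 and ZNF605, the homeobox gene HOXC8, and JDP2, a repressor of AP-1. The genes that were off included EGR4, an immediate-early transcription factor, SP8, OAS3, a sensor of double-stranded RNA, the fructose transporter SLC2A5, LGMN, a lysosomal protease, and the zinc-finger genes ZNF441, ZNF536, ZNF577, ZNF613 and ZNF649 of chromosome 19. The switch thresholds chose these genes in the KO libraries, so the KO values are a description.

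The regrown KO libraries spread less than the other groups, and the regrown WT libraries of the same pools did not. The median SD of log2(CPM + 1) over 11083 genes was 0.0866 among the regrown KO libraries, against 0.158 among the parental KO libraries, 0.152 among regrown WT and 0.114 among parental WT. No gene was at 10 CPM or more in 1 regrown KO pool and 8-fold over both others, or 8-fold under both others where those were at 10 CPM or more, with 1 CPM added to each value. At 4-fold there was 1, HLA-H, with 3.43, 17.8 and 1.46 CPM in the regrown KO libraries. In regrown WT it had 1.89, 1.44 and 0.929 CPM, so the high value was not seen in the other library of that pool. HLA-H is a pseudogene close in sequence to other class I genes, and its reads may be shared with them.

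Blocks of neighbouring genes changed together. Of 265 windows of 10 Mb (hg38) with at least 15 tested genes, 10 had a median log2 change of 0.5 or more and 8 of -0.5 or less. They held 734 genes, 5.46% of those tested, of which 542 (73.8%) were called, where 38.4% of all genes were. These 542 are 10.5% of all called genes. The windows were chosen by the same changes, so the share called is a description. The highest medians were on chromosome 3 at 190 to 200 Mb (1.08, 39 of 48 genes rose) and on chromosome 16 at 50 to 60 Mb (1.06, 46 of 57 rose). Chromosome 6 at 20 to 30 Mb, which holds histone and class I genes, had a median of 0.76, with 45 of 87 rising. The lowest medians were on chromosome 20 at 0 to 10 Mb (-1.12, 53 of 61 fell) and on chromosome 16 at 80 to 90 Mb (-0.99, 69 of 76 fell), and chromosomes 10 and 6 held lowered windows too. So chromosome 16 had raised and lowered blocks. The medians without doxycycline had the same sign in all 18 windows, and in 14 of them were also 0.5 or more in size. With windows of 5 Mb, 11 of 324 were raised and 14 lowered by the same rule. Chromosome 6 at 30 to 35 Mb then had a median of 1.06, with 70 of 119 genes rising. The 10 Mb window at 30 to 40 Mb of that chromosome had a median of 0.27 and was not among the 18.

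**Figure D4:**
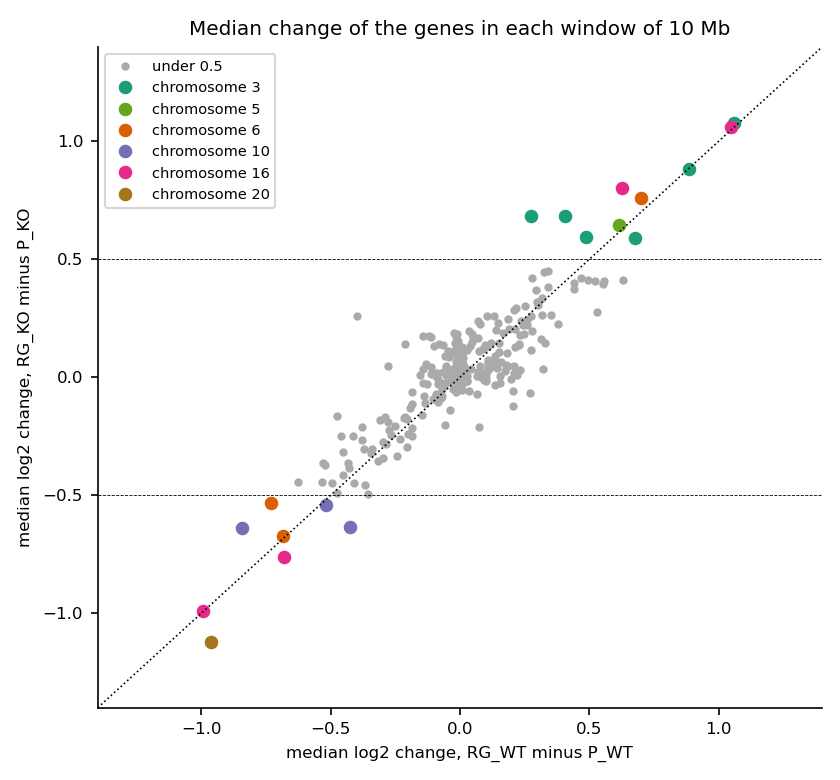
Median log2 change of the tested genes in each of 265 windows of 10 Mb, RG_KO minus P_KO on the vertical axis and RG_WT minus P_WT on the horizontal axis. The 18 windows beyond the dashed lines at 0.5 and -0.5 are coloured by chromosome, and all lie on the same side of 0 in both comparisons.

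Gene lists were then read by role. In each, the count is set beside the background of 18.6% rises and 19.8% falls. Members were counted whether or not they lay in the raised or lowered windows. Among those named, IRF8 and ZNF276 lie on chromosome 16 and PCNA on chromosome 20. BCL6, ETV5, UBA3, ZNF654, GNL3, NFKBIZ, IL1RAP and ZMAT3 lie on chromosome 3, and TNFAIP3, IFNGR1, IER3, CCND3 and BAK1 on chromosome 6. These chromosomes all held such windows, and the genes are examples rather than a full list. Lying on such a chromosome does not place a gene inside a window. How far list members changed with their neighbours was not tested. Of the 25 tested genes of the cereblon ligase machinery (its subunits, the NEDD8 pathway and the COP9 signalosome), 5 rose and 5 fell, with a median log2 change of 0.01. Besides CRBN, the NEDD8-activating subunit UBA3 rose to 55.7, 57.9 and 49.9 CPM in regrown KO, against 28.1, 35.0 and 35.6 CPM in parental KO (0.72 ± 0.11 SE), and the signalosome subunit COPS2 rose (0.51) while COPS3 fell (-0.66). Of 18 tested neosubstrates of drugs of the lenalidomide class, 7 rose and 4 fell (median 0.24). Among them ZNF276 fell to 9.50, 10.8 and 10.6 CPM in regrown KO, against 26.9, 28.8 and 26.0 CPM in parental KO (-1.41 ± 0.11 SE), ZNF654 (0.74) and PATZ1 (0.66) rose, and IKZF2, the Helios factor, had 57 counts in regrown KO and 1 in parental KO, a ratio of 50.6 (8.73 to 2030).

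Immune transcription factors did not move as blocks. Of 14 tested AP-1 and BATF factors 4 rose and 1 fell (median 0.19), among them BATF, which rose to 89.3, 89.0 and 86.9 CPM in regrown KO, against 26.0, 43.8 and 38.9 CPM in parental KO (1.28 ± 0.16 SE), while JUN fell. Of 9 IRF factors 3 rose and 2 fell (median 0.19), with IRF8 falling (-0.77), a lineage factor of myeloid and B cells, beside IRF4, and IRF2 rising (0.54). Of 22 NF-kB subunits and targets 9 rose and 4 fell (median 0.19). NFKBIZ, which encodes the nuclear protein IkB-zeta, rose to 20.9, 21.9 and 16.5 CPM in regrown KO, against 2.53, 7.21 and 4.31 CPM in parental KO (2.05 ± 0.29 SE). The subunit RELB rose (0.63), while TNFAIP3, which encodes the brake A20, fell (-0.81). Of 44 interferon-response genes 13 rose and 8 fell (median 0.17). OAS3 was nearly off, with 2 counts in regrown KO and 472 in parental KO, a ratio of 266 lower (73.2 to 2200), and the antiviral membrane protein IFITM3 fell to 3.04, 2.10 and 1.19 CPM in regrown KO, against 47.4, 135 and 90.5 CPM in parental KO (-5.43 ± 0.44 SE). HERC6 (3.76) and IFIT5 (1.22) rose in the same list.

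Of 16 genes of MHC class I presentation 7 rose and 4 fell (median 0.13). HLA-E rose to 698, 687 and 678 CPM in regrown KO, against 284, 303 and 292 CPM in parental KO (1.22 ± 0.08 SE). The transactivator NLRC5 (1.10) also rose, while the peptide transporter TAP1 fell (-0.92). HLA-E lies on chromosome 6 and NLRC5 on chromosome 16, which both held raised windows. Reads of class I genes may be shared between paralogs. Of 7 class II genes tested 2 fell and none rose (median -0.92), with HLA-DRA at 2.13, 2.26 and 2.93 CPM in regrown KO, against 9.29, 14.3 and 11.1 CPM in parental KO (-2.25 ± 0.22 SE). The other fall, HLA-DPA1 (-1.35, adjusted p = 0.0464), was lost without any 1 of 5 of the 6 libraries.

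Few T-cell genes passed the filter on low counts, which a gene high in only 1 group can pass. Only 6 of 24 genes of the T-cell receptor and T-cell identity could be tested, of which 4 rose and 1 fell (median 0.78). TRBC2, a constant segment of the receptor beta chain, rose to 10.3, 8.84 and 10.5 CPM in regrown KO, against 1.10, 0.920 and 0.871 CPM in parental KO (3.36 ± 0.20 SE), and GATA3 rose (0.78). CD5, a brake on receptor signalling, fell (-1.70). Of 12 genes for CD45 and Src-family kinases 2 rose, PTPRC among them, and 6 fell (median -0.25). The kinases LYN (-1.59) and SRC (-3.28) were among the falls.

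Of 23 genes listed for ALK and STAT3, 2 rose and 7 fell (median -0.22), and of the 10 lymphoma markers 1 rose and 5 fell (median -0.13). TNFRSF8, the CD30 antigen that marks this lymphoma, fell to 319, 330 and 334 CPM in regrown KO, against 604, 546 and 612 CPM in parental KO (-0.85 ± 0.08 SE). EMP1 (-2.38) and GZMB (-1.13) fell, and BCL6, a repressor of lymphoid differentiation, rose (1.10). Of 11 cytotoxic granule genes 3 rose and 5 fell (median -0.33), with granzyme H falling (-1.69) and SRGN (0.81) and CTSC (0.75) rising.

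Of 24 cytokine receptors 8 rose and 9 fell (median 0.12). IL1R1, the interleukin-1 receptor, fell to 85.2, 72.5 and 66.5 CPM in regrown KO, against 310, 320 and 330 CPM in parental KO (-2.11 ± 0.10 SE), while its accessory chain IL1RAP rose (1.30), and so did IL18RAP (2.94). IFNGR1, the interferon-gamma receptor, fell (-1.54). Of 7 cytokines and chemokines tested 1 rose and 2 fell (median -0.16). CSF1, the macrophage growth factor, fell to 0.607, 0.210 and 0.274 CPM in regrown KO, against 11.4, 11.7 and 10.8 CPM in parental KO (-4.90 ± 0.28 SE), SPP1 fell (-1.29), and CCL20, a chemokine for CCR6-bearing cells, rose (1.69). Of 21 integrin and adhesion genes 3 rose and 7 fell (median -0.05), with ITGA5 falling (-2.19) and TNS4 rising (2.77). ITGA2 had 88 counts in regrown KO and 1 in parental KO, a ratio of 78.1 (13.7 to 3120).

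Of 17 PI3-kinase and AKT genes 6 rose and 6 fell (median -0.11). PIK3CG rose and its regulatory partner PIK3R6 fell to 0.737, 1.11 and 1.10 CPM in regrown KO, against 8.51, 7.05 and 7.70 CPM in parental KO (-2.99 ± 0.23 SE). PIK3CA rose (1.37). Of 14 genes that feed back on MAPK signalling 6 rose and 4 fell (median 0.18), with ETV5 (0.96), IER3 (1.96) and SPRY4 (0.75) rising and DUSP4 falling (-1.50).

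Of 39 cell-cycle genes 11 rose and 6 fell (median 0.15), with the D-type cyclin CCND3 falling to 623, 645 and 628 CPM in regrown KO, against 1050, 1190 and 1170 CPM in parental KO (-0.86 ± 0.09 SE), PCNA falling (-0.75) and CDC6 (0.46) and CCNE2 (0.66) rising. Of 24 p53 targets 5 rose and 4 fell (median -0.12), among them TP53INP1 (-3.78), BTG2 (-0.79) and FDXR (-0.67), which fell, and ZMAT3 (0.79), which rose, beside the large rise of TP73. Of 22 apoptosis regulators 9 rose and 2 fell (median 0.17). BCL2L11, which encodes the killer protein BIM, rose to 28.4, 32.7 and 28.9 CPM in regrown KO, against 7.60, 8.54 and 9.40 CPM in parental KO (1.80 ± 0.12 SE). The inhibitors CFLAR (0.71) and BCL2A1 (0.87) rose as well, and the pore-forming BAK1 fell (-0.89). Without doxycycline CFLAR (0.81) was called too, and BCL2A1 (-0.16, adjusted p = 0.426) was not. Of 30 ribosome-biogenesis genes 3 rose and 10 fell (median -0.22), with BOP1 (-0.72), BYSL (-0.54) and PPAN (-0.75) falling and GNL3 (0.74) rising.

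Falls outnumbered rises in the lists for hypoxia, glycolysis and hexose transport. Of 33 genes of hypoxia and glycolysis 2 rose and 13 fell (median -0.20). CA9, a carbonic anhydrase induced by hypoxia, fell to 6.59, 3.32 and 4.52 CPM in regrown KO, against 23.8, 43.8 and 37.0 CPM in parental KO (-2.85 ± 0.28 SE), with BNIP3 (-1.82), EGLN1 (-1.27) and HIF1A (-0.84) falling too. Of 6 hexose transporters tested 4 fell and none rose (median -1.29). SLC2A5 had 2 counts in regrown KO and 247 in parental KO, a ratio of 139 lower (38.1 to 1150), and SLC2A4 (-2.62), SLC2A6 (-2.05) and SLC2A13 (-0.53) fell. Of 25 genes of cholesterol and fatty acid synthesis 7 rose and 7 fell (median -0.07). The desaturase FADS1 fell to 2.43, 2.47 and 2.93 CPM in regrown KO, against 41.5, 36.6 and 36.7 CPM in parental KO (-3.88 ± 0.13 SE), CYP51A1 fell (-1.41), and ELOVL6 (0.97) and IDI1 (1.26) rose.

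Of 26 genes of the amino acid response and the unfolded protein response 5 rose and 5 fell (median -0.00211). SLC7A5, a transporter of large neutral amino acids, fell to 514, 689 and 714 CPM in regrown KO, against 1820, 1480 and 1740 CPM in parental KO (-1.4 ± 0.15 SE), TRIB3 fell (-0.95), and HERPUD1 (1.51) and EDEM1 (1.01), both of the disposal of misfolded proteins, rose. Of 18 heat shock chaperones 5 rose and 1 fell (median -0.07), the fall being HSPB1 (-1.24). Rises included HSPA1A (0.83) and HSPA1B (0.76), near-identical paralogs that may share reads, and DNAJB1 (0.36). Of 7 genes of drug efflux and the vault particle 1, ABCC10, fell (-0.76) and none rose (median 0.08).

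Of 27 nuclear genes for the mitochondrial ribosome and its kin 6 rose and 10 fell (median -0.12), with MRPS18B, which lies among the raised genes of chromosome 6, rising (1.44) and LONP1 (-0.87), MRPS22 (-0.99) and MRPS5 (-0.53) falling. Of 13 mitochondrially encoded genes 4 fell and none rose (median -0.32), and the largest fall was that of MT-ND6, a subunit of complex I, at 332, 347 and 418 CPM in regrown KO, against 830, 588 and 510 CPM in parental KO (-0.82 ± 0.18 SE). MT-CO2, a subunit of cytochrome c oxidase, had the lowest p, at 2120, 2440 and 2660 CPM in regrown KO, against 3790, 4730 and 3490 CPM in parental KO (-0.74 ± 0.14 SE). Without doxycycline 8 of the 13 rose and 1 fell (median 0.44), and 6 were called lower in the test of the difference. Of 18 replication-dependent histone genes 7 rose and 1 fell (median 0.36), among them HIST1H2BK (1.87), HIST1H1C (2.6), HIST1H2BJ (2.26) and HIST1H2AC (1.22). Replication-dependent histone mRNAs mostly lack a poly(A) tail, and members share sequence. How the RNA was selected for sequencing is not given in the sources used here.

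**Figure D5:**
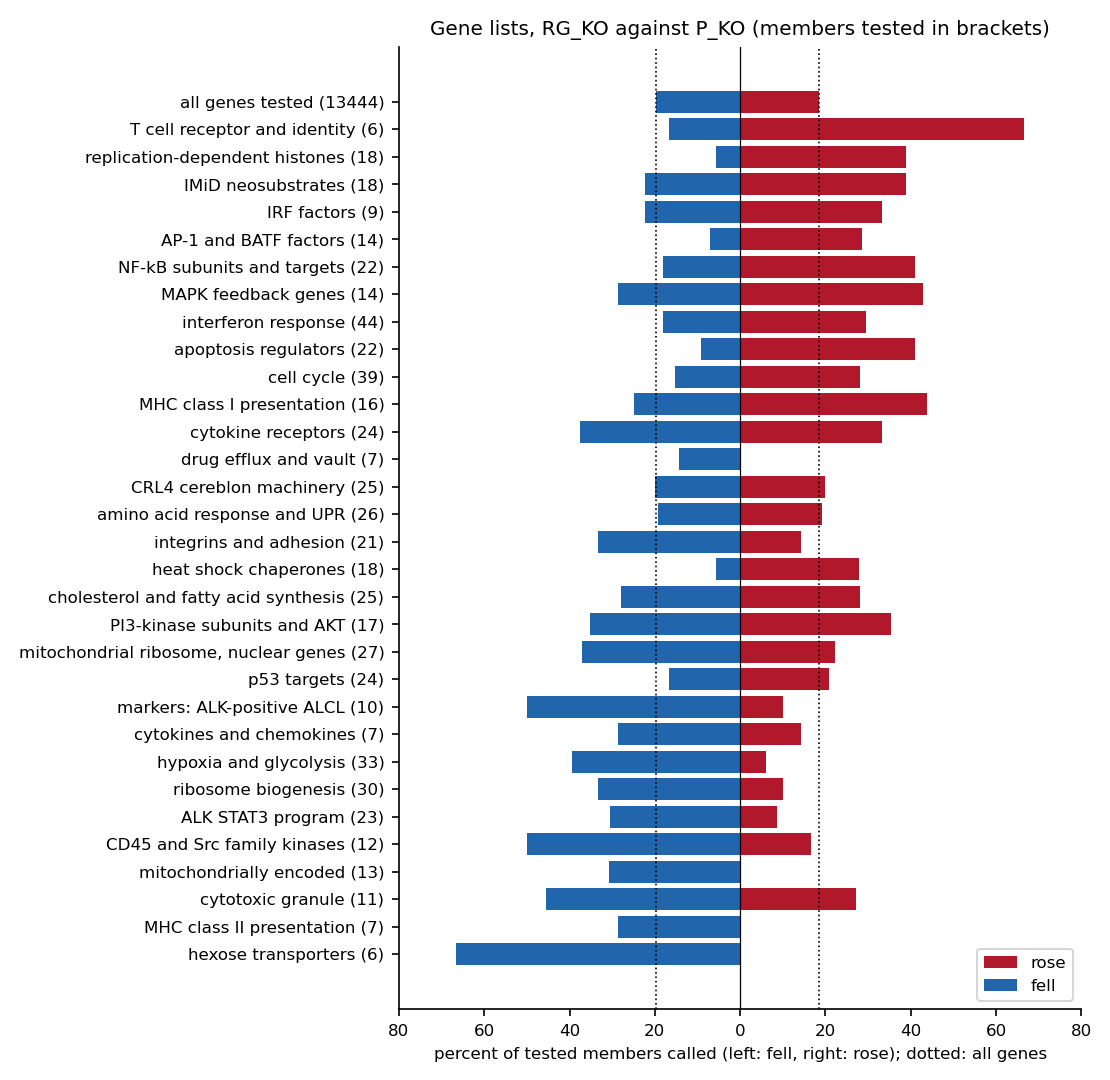
Percent of the tested members of each gene list with at least 6 tested members that rose (red, right) or fell (blue, left) in RG_KO against P_KO, sorted by median log2 change. Dotted lines mark the background of all genes, 18.6% rises and 19.8% falls, and hexose transporters and the T-cell list lie farthest from it, each with only 6 members tested.

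Last, the test of the difference between the comparisons, (regrown KO minus parental KO) minus (regrown WT minus parental WT), was read for genes whose resistance change differed with doxycycline and the guide. It called 1399 of 14267 genes (9.81%), with 638 higher (4.47%) and 761 lower (5.33%). Scaling by library size alone turned the split to 977 higher and 463 lower. With the replicate numbers, which the labels give as the regrown line's number, as a block within regrown and within parental cells, it called 2257. The number called changed widely when single libraries were left out. Without regrown KO replicate 1 or 2, parental KO replicate 3, regrown WT replicate 1 or 3, or parental WT replicate 2 or 3, edgeR called 0 genes, with 3244 to 3768 at an unadjusted p under 0.05 (4212 with all libraries). DESeq2 on all libraries called 2410. Without regrown KO replicate 3 the count was 542, without parental KO replicate 1 it was 587, and without parental WT replicate 1 it was 1209. Without parental KO replicate 2 it was 3355, and without regrown WT replicate 2 it was 2686. Each fit that left out a library had 1 fewer in its group, and what that alone did to the count was not tested.

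A property of the libraries moved with this test. The mean log2 level of short genes minus that of long genes, by RefSeq gene span, was -0.09, -0.10 and -0.17 in regrown KO and -0.44, 0.08 and -0.16 in parental KO, which overlapped. It was -0.49, -0.36 and -0.66 in regrown WT and -0.26, -0.21 and -0.03 in parental WT, which did not. Spearman's rho of the log2 change with gene span was -0.014 for the KO comparison, 0.209 for the WT comparison and -0.273 for the difference, over genes that share these libraries. With that score as a covariate the difference called 81 genes, the WT comparison 2625 and the KO comparison 7398. Its part in the called genes was not tested further.

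Of the 3106 genes called in the same direction in both comparisons, 221 were also called in the difference. Opposite calls were found at 93 genes. All of them were called in the difference, which opposite calls from the same libraries make nearly certain. Among these NEAT1, a nuclear long noncoding RNA, rose with the guide induced (0.83) and fell without it (-0.69), as did SNHG15 (0.79 and -0.65), SNHG1 (0.64 and -0.89) and CLK1, a kinase of splicing factors (0.66 and -0.62). These 4 were picked from the opposite calls after their values were seen. A further 935 rises and 963 falls were called with the guide only, of which 188 and 172 were called in the difference. More were called without doxycycline only, 1434 rises and 1145 falls, of which 393 and 284 were called in the difference. For the rest no difference between the comparisons was shown.

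The largest higher difference was that of HLA-H (4.43 ± 1.15 SE, adjusted p = 0.0335), which rested on single libraries. It had 3.43, 17.8 and 1.46 CPM in regrown KO, against 0.975, 2.1 and 1.56 CPM in parental KO, and 1.89, 1.44 and 0.929 CPM in regrown WT, against 11, 8.7 and 1.03 CPM in parental WT. C19orf81 had 3.6, 2.37 and 1.65 CPM in regrown KO, against 2.14, 3.37 and 2.66 CPM in parental KO, and was called lower only without doxycycline (difference 2.18, adjusted p = 0.0442). CCL20 stood at 13.6, 11.4 and 10.5 CPM in regrown KO, against 1.62, 4.29 and 4.77 CPM in parental KO, and at 4.18, 5.82 and 2.56 CPM in regrown WT, against 4.78, 4.47 and 6.27 CPM in parental WT. It was higher in regrown KO than in parental KO and overlapped between regrown WT and parental WT, and the difference was 1.93 ± 0.45 SE (adjusted p = 0.0265). In PRO-seq, from cells not labelled as carrying the guide, CCL20 was also higher, at 55.6, 43.3 and 56.1 CPM in regrown cells, against 16.8, 13.2 and 10.6 CPM in parental cells (1.92, adjusted p = 4.34e-05). TREM1, an activating receptor of myeloid cells, had 4.38, 3.89 and 3.43 CPM in regrown KO, against 3.64, 3.63 and 3.53 CPM in parental KO, and 1.89, 3.45 and 1.51 CPM in regrown WT, against 9.09, 12.3 and 10.4 CPM in parental WT. Its fall was called without doxycycline and not with it (difference 2.24 ± 0.36 SE, adjusted p = 0.0238). PIK3R6 fell in both, less with the guide (-2.99) than without it (-5.20), and NECAB2, a calcium-binding protein, likewise (-1.92 and -3.90).

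Among lower differences, TIGD2 fell more with the guide (-6.93) than without it (-3.04), where regrown WT had 1.89, 0 and 2.15 CPM, against 11, 13.8 and 10.5 CPM in parental WT. MAP3K21, a kinase of the MAPK cascades, had 3 counts in regrown KO and 236 in parental KO. STXBP6 fell to 0.521, 0.526 and 0.503 CPM in regrown KO, against 4.42, 4.91 and 5.87 CPM in parental KO, with no overlap, but was not called without doxycycline, at 2.9, 0.412 and 2.67 CPM in regrown WT, against 3.8, 4.29 and 3.43 CPM in parental WT (-0.85, adjusted p = 0.177). ZNF134 rose less with the guide (4.10) than without it (6.49). SLC7A8, an amino acid transporter, was at 1.04, 0.947 and 1.19 CPM in regrown KO, against 2.27, 0.767 and 1.42 CPM in parental KO, and at 6.06, 1.70 and 6.39 CPM in regrown WT, against 0.748, 0.647 and 1.13 CPM in parental WT. NHSL1 had the same shape, with regrown WT at 5.5, 2.11 and 7.78 CPM. For TIGD2, MAP3K21, STXBP6, SLC7A8 and NHSL1, regrown WT replicates 1 and 3, the 2 libraries lowest on the short-against-long score, were the highest of the regrown WT libraries.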

How the data were processed

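RNA-seq and PRO-seq were used as gene counts that the authors deposited without normalisation, 1 column per library. The submitters' processing notes name STAR 2.6.1d, DESeq2 1.20.0, edgeR 3.24.3 and build hg38 for RNA-seq, and cutadapt 1.14, Bowtie 1.2.2 and featureCounts 1.6.2 for PRO-seq. The counting tool, strand setting and RNA selection of the RNA-seq are not given in the sources used here, so overlapping and antisense genes may share reads. Genes were filtered with filterByExpr, scaled by TMM and tested with edgeR 4.0.16 (glmQLFit and glmQLFTest, R 4.3.3) at a Benjamini-Hochberg adjusted p of 0.05. Each comparison used its 6 libraries, and the difference of the 2 comparisons used 12. CPM scales each count to the library total, and levels are not compared between genes. Folds against 0 counts were taken against 3 counts summed over that group's libraries; ratios from 1 to 3 counts carry exact 95% intervals. Both cover counting error only. The scripts were tested on simulated data. No libraries were duplicates (lowest chi-square per degree of freedom 4.81).

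Named genes were the design genes, the 12 largest called changes per direction whose groups did not overlap and whose average log2 CPM reached 1 (clone and locus names left out), the 4 or fewer called list members of lowest p, and the 6 largest differences per direction. The comparison, the 35 lists and these rules were chosen with earlier results of these data known. Positions and promoters are from RefSeq. Alternatives were other scalings, filters, DESeq2 1.42.0, a replicate block, all 12 libraries in 1 fit, a gene-span covariate added after seeing the data, and leaving out each library. Results for some genes are not reported here. The labels number the regrown lines alike in both regrown groups; deviations of same-numbered regrown KO and regrown WT libraries had correlations of 0.00355, 0.0249 and 0.2, and 1 pair of unlike numbers reached 0.161.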

Additional observations from a re-analysis of the deposited data

Results flagged for a closer look

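For the following genes the resistance change with the guide induced differed from that without doxycycline in the test of the difference (edgeR, adjusted p under 0.05, 12 libraries). Values are log2 differences, and how this test changed when single libraries were left out is given in the report. Among design genes these were IKZF1 (-0.553) and CSNK2A2 (-0.755). Among the largest differences were HLA-H (4.43), TREM1 (2.24), PIK3R6 (2.23), C19orf81 (2.18), NECAB2 (2.00) and CCL20 (1.93) on the higher side, and TIGD2 (-3.86), MAP3K21 (-3.26), SLC7A8 (-3.01), STXBP6 (-2.41), ZNF134 (-2.37) and NHSL1 (-2.34) on the lower side.

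Among genes named from the lists, the regulators of signalling and transcription were UBA3 (0.707), MAFF (0.589), IRF2 (0.444), BCL6 (0.454), CD5 (-0.822), IL1R1 (0.527), IFNGR1 (0.598) and PIK3CA (-0.632). Those of growth and survival were PCNA (0.592), FDXR (-0.552), ZMAT3 (-0.837), BCL2A1 (1.05), GNL3 (0.552), BOP1 (-0.494) and HIST1H1C (1.25). Those of metabolism and stress were IDI1 (1.03), SLC7A5 (-0.726), BNIP3 (0.766) and HSPB1 (1.15), with the mitochondrially encoded MT-ND6 (-0.944), MT-ND5 (-0.926) and MT-CYB (-0.902). Some were called with the guide induced and not without doxycycline, where UBA3 changed by 0.04, MAFF by 0.002, IRF2 by 0.12 and BCL2A1 by -0.16. The same held for FDXR (-0.09), GNL3 (0.21) and BOP1 (-0.21). Others, such as BCL6, CD5, IL1R1, IFNGR1, PCNA and ZMAT3, were called in the same direction in both comparisons.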

How the results depend on the processing

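For regrown KO against parental KO, 149 of 158 named genes stayed on the same side of the threshold in every alternative, and 142 of 148 called genes kept their call and direction. 5 uncalled genes took either sign, among them ZFP91 (-0.144 to 0.0478), MYC (-0.0454 to 0.263) and NHSL1 (-0.41 to 0.22). The count of called genes ran from 3731 to 6056 when 1 library was left out, and the gene-span covariate gave 3795 rises. For regrown WT against parental WT that covariate gave 2625 calls (1400 rises, 1225 falls). The difference of the comparisons moved most. It called 0 to 3355 genes when 1 library was left out (0 to 1673 higher, 0 to 1682 lower), 977 higher and 463 lower by library size only, 2333 (1358 higher) with no filter, 2410 (1026 higher, 1384 lower) by DESeq2 and 81 (37 higher, 44 lower) with the gene-span covariate; the cause was not tested. Calls shared by both comparisons numbered 947 with a log2 change of at least 1 in both, and pool-specific genes 1 at 4-fold. The planned covariate by transcript length was not run because no lengths were used here.

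With the replicate numbers as a block, regrown KO against parental KO called 4492 genes (2179 rises, 2313 falls), regrown WT against parental WT 5315, and the difference 2257 (1097 higher, 1160 lower). Same-numbered regrown KO and parental KO libraries had correlations of -0.191, 0.111 and -0.0129, so the numbers were not read as a pairing.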
